A study of Mus musculus with 4 samples.

Results

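The genes described here are 9 transcription regulators known for their part in the self-renewal of hematopoietic stem cells (HSC): Hlf, Mecom, Prdm16, Meis1, Hoxa9, Hoxb5, Erg, Mllt3 and Mycn. They were found by their symbols in each of 8 deposited tables, and all 9 were among the 20062 genes that each table lists. The series holds 4 samples of purified HSC from mouse bone marrow, taken at steady state, 2 labelled old and 2 labelled young, with neither sex nor age in weeks given, and every mouse carried Gfp-Lc3, a fluorescent reporter of autophagosomes that the labels give for all samples alike. The tables name no sample, age or reporter level. They compare cells of 7 clusters, c1 to c7, each with the cells outside it, and c1 with c2, so that old and young samples, or cells with high and low reporter levels, are not set against each other here. No table gives cell numbers, errors or replicates, and every fold change below is thus without an interval.

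Self-renewal is the division of a stem cell that yields at least one more stem cell. In blood it depends on a small group of nuclear factors, many of which are high in HSC and fall as progenitors commit to a lineage. HLF is a bZIP factor of the PAR family, whose gene is widely used to mark mouse and human HSC. MECOM (also called EVI1 or PRDM3) and PRDM16 are related zinc finger proteins, and mice that lack either lose HSC. HOXA9 and HOXB5 are homeodomain factors, and MEIS1 is a TALE homeodomain protein that binds DNA together with HOX and PBX proteins. ERG is an ETS factor, MLLT3 (AF9) is a chromatin reader of the super elongation complex, and MYCN is a MYC family factor that shares its role in mouse HSC with MYC.

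The promoter windows of Hlf, Mllt3 and Mycn, examples of 3 patterns described further on, are shown first, from RefSeq on GRCm38.p6, as the 250 bases before the annotated start site, 5′ to 3′ on the gene's strand. Hlf was highest in c2, Mllt3 was not called between c1 and c2 and had the lowest fold change of the 9 in c4, and Mycn was highest in c1. Capitals mark matches to any of 7 short motifs, searched on both strands and spelled out after the sequences. No searched motif contains another.
Hlf, chr11:90390918-90391167, minus strand: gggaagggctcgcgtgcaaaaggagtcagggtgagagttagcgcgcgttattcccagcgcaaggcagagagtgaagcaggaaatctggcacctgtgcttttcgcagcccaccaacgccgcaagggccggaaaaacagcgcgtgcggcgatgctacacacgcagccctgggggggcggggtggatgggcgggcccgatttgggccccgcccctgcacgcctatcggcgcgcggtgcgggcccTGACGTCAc
Mllt3, chr4:88033408-88033657, minus strand: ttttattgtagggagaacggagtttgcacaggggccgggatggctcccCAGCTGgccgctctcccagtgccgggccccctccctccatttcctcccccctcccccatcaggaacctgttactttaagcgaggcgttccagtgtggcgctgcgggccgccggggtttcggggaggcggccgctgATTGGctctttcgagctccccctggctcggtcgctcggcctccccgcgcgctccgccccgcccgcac
Mycn, chr12:12941837-12942086, minus strand: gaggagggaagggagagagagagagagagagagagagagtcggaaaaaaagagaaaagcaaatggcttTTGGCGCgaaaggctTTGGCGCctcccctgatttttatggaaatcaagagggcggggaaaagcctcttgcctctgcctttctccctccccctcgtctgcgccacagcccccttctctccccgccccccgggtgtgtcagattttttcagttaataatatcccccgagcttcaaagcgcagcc

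The Hlf window held a full cyclic AMP response element, TGACGTCA, which began 9 bases before the start site and was present in 1.79% of all 32851 windows. Each window searched runs from 250 bases before to 50 bases after a start site. The Mycn window held the E2F letters TTGGCGC at 2 places, and 2.45% of all windows held them at least once. The E-box letters CAGCTG of the Mllt3 window were in 16.3% of all windows. The CCAAT box, found in the Mllt3 window as its reverse complement, was in 37.4%. In all, 8 of the 9 genes had 12 windows among them, of which 7 held the CCAAT box. The MEIS letters TGACAG were in 4 of the 12, and in 19.2% of all windows. The ETS letters CCGGAAG were in 1 of the 12, a Meis1 window, and in 8.86% of all windows. The GATA letters AGATAA were in 1 of the 12, an Erg window, and in 11.2% of all windows. These matches describe letters, not binding.

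A pair of windows shared more sequence than the rest. The longest run of identical bases between windows of different members was 24 bases, just after the start sites of Mecom (its first window) and Prdm16, and of all 32851 windows only these 2 held it. The next longest run among the 61 pairs of windows was 14 bases. The shared run is shown in capitals, since Mecom and Prdm16 are paralogs. Hoxb5 had no window, so it could not be compared with Hoxa9 in this way.
Mecom, chr3:30509710-30509739, minus strand: tctaacGCGCATGTGCGAAGGTGTCCAAAC
Prdm16, chr4:154636838-154636867, minus strand: tgtGCGCATGTGCGAAGGTGTCCAAACtga

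In the GENCODE annotation of GRCm38, Hlf lies on chromosome 11 from 90336536 to 90390895, Meis1 on chromosome 11 from 18879817 to 19018985 and Hoxb5 on chromosome 11 from 96303336 to 96306121. Mecom lies on chromosome 3 from 29951296 to 30548008, Mllt3 on chromosome 4 from 87769925 to 88033364 and Prdm16 on chromosome 4 from 154316125 to 154636873. Hoxa9 lies on chromosome 6 from 52223100 to 52231089, Mycn on chromosome 12 from 12936093 to 12941914 and Erg on chromosome 16 from 95359169 to 95586593. Hoxb5 is on the plus strand and the others are on the minus strand. Antisense genes that the tables also list overlap Mecom (Mecomos), Meis1 (Gm16140 and Gm16141), Hoxb5 (Hoxb5os) and Prdm16 (Gm13133 and Gm13134), and since the strand setting of the counting is unknown, the reads of each such pair may be mixed.

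The clusters were checked against marker lists. Of 10 HSC surface and reporter genes, 6 were called higher and 2 lower in c1, and 8 higher and 2 lower in c2. A call was an adjusted p under 0.05 in the authors' deposited tables. Procr was higher in both clusters, Ctnnal1 and Tek were lower in c1, and Slamf1 and Vwf were lower in c2. All 10 S phase genes, all 10 erythroid genes and 6 of 8 megakaryocyte genes were higher in c3. All 10 G2/M genes were higher in c4, as were 9 of 10 S phase genes, 5 of 10 erythroid genes and 5 of 8 megakaryocyte genes. However, 24.3% of all genes and 44.2% of expressed genes (defined below) were called higher in c4. Beside these shares the erythroid and megakaryocyte counts of c4 say little. Such shares for the other clusters are given further on. In c5, 9 of 10 granulocyte and monocyte progenitor genes, 10 of 10 late neutrophil genes and 10 of 10 G2/M genes were higher. Of 8 T and NK cell genes, 3 were higher in c5 too and none lower, and whether c5 mixes cell types was not tested. Higher in c6 were 10 of 10 late neutrophil genes, and in c7 9 of 10 B cell genes. By shares rebuilt from the tables, c1 held 40.8% of the cells, c2 33.8%, c3 12.0%, c4 10.2%, c5 1.66%, c6 0.996% and c7 0.348%. Any of these genes, and any of the 9 factors, may have helped to define the clusters. The authors' p-values, here and below, thus describe the clusters and are not an independent test.

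All 9 factors reached the median mean expression of the listed genes. Their mean expression lay above that of 70.0% of the listed genes for Hoxb5 and above that of 98.9% for Hlf, with no correction for gene length. On a scale that sums to 10000 over genes, means were only 0.196 for Hoxb5, 0.267 for Erg and 0.272 for Prdm16. The depth per cell is unknown, so their distance from the detection floor cannot be given. Since strongly expressed genes were called more often, shares are given below both for all genes and for expressed genes, meaning the 10027 whose mean expression reached the median. Hlf, Mecom, Meis1, Mllt3, Mycn and Hoxa9 lay above 91.2% or more of the genes. For them even the expressed share may be too low a background.

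The c1 and c2 clusters, which together held most cells, carried the highest levels of every factor. From the deposited mean expression (which sums to 10000 over genes), the fold changes and the shares of cells, a mean level was rebuilt for each gene in each cluster, on a scale per 10000. The level was highest in c2 for 7 factors and highest in c1 for Hoxb5 and Mycn. For Mllt3 and Prdm16 the c2 level was close to that in c1 (2.53 against 2.46, and 0.300 against 0.290). Neither was called in the authors' deposited c1 against c2 table. In 7 of the 9 both c1 and c2 were above c3, c4 and c5, the exceptions being Hoxa9 and Erg, where c4 lay between c2 and c1. In all 9 the c5 level was below those of c1 to c4. Beyond the authors' comparison of c1 with c2, itself not independent of the clustering, no test stands behind these orders. The tables give no spread over samples.

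**Figure D1:**
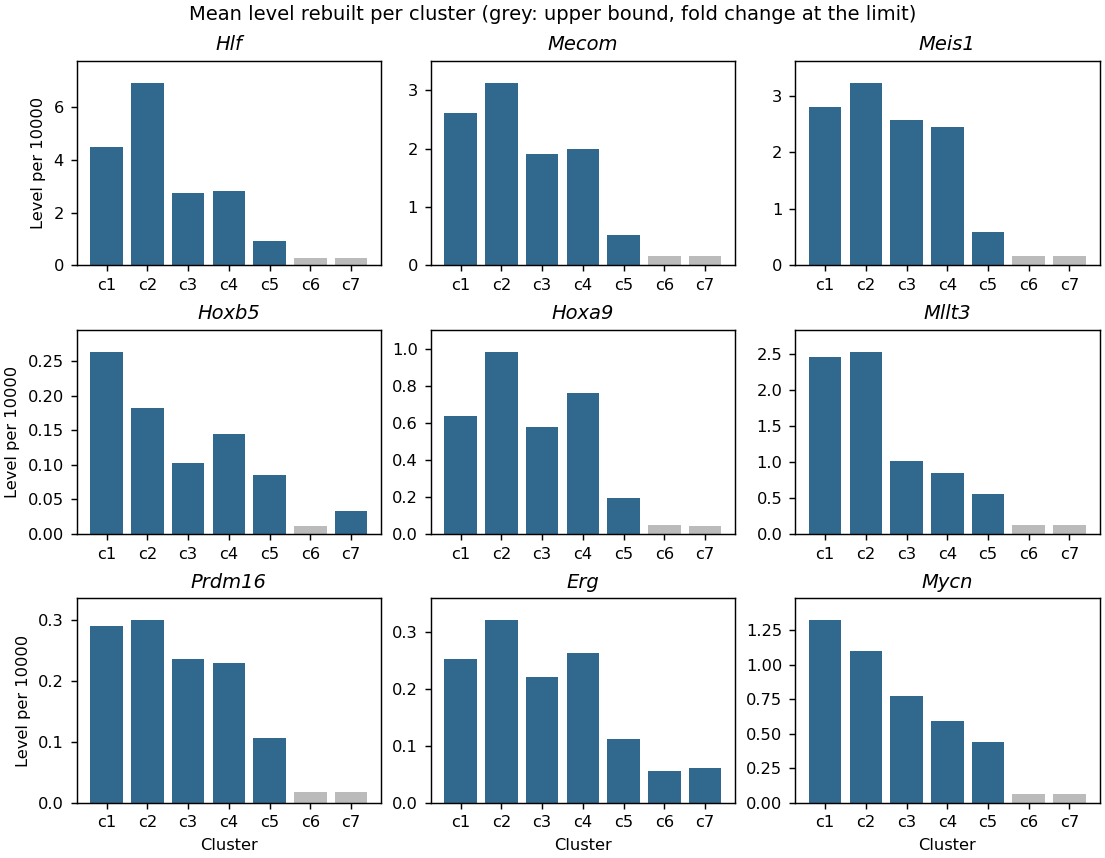
Bars give the mean level of each factor per 10000 (y axis, from 0, own scale for each gene) in clusters c1 to c7, rebuilt from the deposited tables; grey bars are upper bounds because the deposited fold change is at its limit of -4. The tallest bar is c2 for 7 genes and c1 for Hoxb5 and Mycn, and c5 is below c1 to c4 in every panel. For Mllt3 and Prdm16 the c1 and c2 bars are nearly equal.

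Hlf showed the steepest profile. Its rebuilt level was 4.48 in c1, 6.91 in c2, 2.75 in c3, 2.80 in c4 and 0.925 in c5, and at most 0.288 in c6 and 0.286 in c7. The c5 level was thus 13.4% of the highest one, the lowest such share among the 9 factors. In c3 and c4 Hlf stood at about the same level, 39.8% and 40.6% of that in c2. For Hlf the cluster levels weighted by share came to 1.05 times the deposited mean, the largest such error among the 9 factors.

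Mecom and Meis1 varied less than Hlf among c1 to c4. Mecom levels were 2.60 in c1, 3.12 in c2, 1.91 in c3, 1.99 in c4 and 0.523 in c5. Meis1 levels were 2.79 in c1, 3.22 in c2, 2.57 in c3, 2.45 in c4 and 0.594 in c5. The span of Meis1 from the highest to the lowest of c1 to c4 was only 0.39 on the log2 scale, against 0.71 for Mecom and 1.33 for Hlf, yet in c5 Meis1 was down to 18.4% of its highest level.

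Mllt3 had the widest span among c1 to c4, 1.59 on the log2 scale. Its levels were 2.46 in c1, 2.53 in c2, 1.02 in c3, 0.842 in c4 and 0.553 in c5, so that c1 stood at 97.1% and c4 at 33.3% of the c2 level. Mycn followed another order, at 1.32 in c1, 1.10 in c2, 0.770 in c3, 0.591 in c4 and 0.438 in c5. Hoxb5 had levels of 0.264 in c1, 0.182 in c2, 0.103 in c3, 0.144 in c4 and 0.0857 in c5. These are the 2 factors with their highest level in c1.

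Hoxa9, Prdm16 and Erg had narrower spans among c1 to c4 than Mllt3, Hoxb5, Hlf and Mycn. Hoxa9 levels were 0.635 in c1, 0.985 in c2, 0.578 in c3, 0.760 in c4 and 0.193 in c5. Prdm16 had the narrowest span among c1 to c4, 0.38 on the log2 scale, with levels of 0.290 in c1, 0.300 in c2, 0.237 in c3, 0.230 in c4 and 0.107 in c5. Erg stood at 0.253 in c1, 0.322 in c2, 0.222 in c3, 0.263 in c4 and 0.113 in c5, and it was the factor with the highest share left in c6, 17.4% of its c2 level.

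In c1, as set against the cells outside it, 5 of the 9 factors were called higher and 1 lower, where 43% of all genes were called, 13.3% as higher and 29.7% as lower (18.1% and 47.7% of expressed genes). The higher ones in the authors' deposited table for c1 were Hoxb5 at a log2 fold change of 0.82 (adjusted p = 8.36e-28), Mycn at 0.60 (2.16e-41), Mllt3 at 0.56 (1.23e-56), Prdm16 at 0.16 (0.0261) and Mecom at 0.10 (0.000378). Hoxa9 was lower at -0.34 (1.05e-14) in the same authors' deposited table, and Hlf at -0.05, Meis1 at 0.04 and Erg at -0.13 were not called. With a size of at least 0.5 also asked for, 3 were called (Hoxb5, Mycn and Mllt3). The median of the 9 was 0.10, beside -0.14 over all genes and -0.12 over expressed genes.

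In c2, 7 of the 9 were called higher and none lower, where 37.2% of all genes had a call, 15.9% higher and 21.4% lower (27.1% and 31.5% of expressed genes). Hlf had the largest change at 1.04 (adjusted p = 3.75e-261) in the authors' deposited table for c2. The homeodomain genes Hoxa9 at 0.70 (5.28e-52) and Meis1 at 0.37 (1.36e-41) were also higher in that authors' deposited table. Further values in the authors' deposited table were 0.56 for Mllt3, 0.52 for Mecom, 0.42 for Erg and 0.22 for Prdm16, whereas Hoxb5 at -0.16 (adjusted p = 0.113) and Mycn at 0.09 (0.122) were not called. The median was 0.42, beside -0.06 over all genes.

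In the authors' deposited c1 against c2 table, 2 factors were called higher in c1 and 5 lower, where 37.4% of all genes had a call, 15.4% higher and 22% lower (21.8% and 37.2% of expressed genes). The median of the 9 was -0.21, beside -0.03 over all genes and -0.07 over expressed genes. With 9 genes, counts this small say little against these backgrounds.

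**Figure D2:**
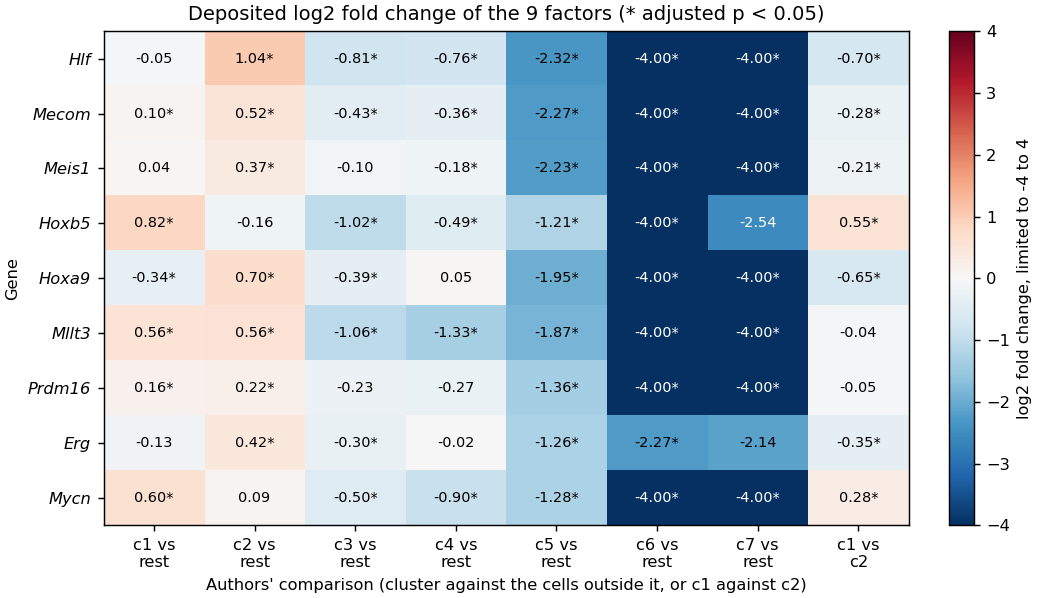
Each cell gives the authors' deposited log2 fold change of a factor (rows) in a comparison (columns), coloured from -4 to 4, with a star where the authors' adjusted p is under 0.05. The c2 column is positive for 8 of 9 genes, the c5 to c7 columns are negative throughout, and the c1 against c2 column is positive only for Hoxb5 and Mycn.

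The factors lower in c1 than in c2 were led by Hlf and Hoxa9. Hlf stood at -0.70 (adjusted p = 7.32e-174) in the authors' deposited c1 against c2 table. Its rebuilt level was 4.48 in c1, against 6.91 in c2, a log2 ratio of -0.63. Hoxa9 stood at -0.65 (1.10e-52) in that authors' deposited table, with a level of 0.635 in c1, against 0.985 in c2. Smaller differences in the same direction in the authors' deposited table were -0.35 for Erg (1.56e-07), -0.28 for Mecom (1.92e-27) and -0.21 for Meis1 (1.71e-18). The opposite direction was taken by Hoxb5 at 0.55 (2.25e-13) and Mycn at 0.28 (6.41e-10) in the authors' deposited table. Mllt3 at -0.04 (0.393) and Prdm16 at -0.05 (0.582) in the authors' deposited table were not called, and no interval for these differences can be given.

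Sex-linked genes moved with c1 and c2. Xist, the RNA of the inactive X chromosome, reached -4, its lower limit, in the authors' deposited c1 against c2 table, and the Y-linked genes Eif2s3y at 1.03 and Ddx3y at 0.78 were higher in c1. Against the rest, Xist was at -4 in c1 and 3.22 in c2, and Eif2s3y at 0.87 in c1 and -0.79 in c2, in the authors' deposited tables. Their part in the c1 and c2 values, those of the HOX genes included, was not tested, since the tables hold no sample or sex.

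In c3, the cluster with S phase, erythroid and megakaryocyte markers, 7 of the 9 factors were called lower and none higher, where 28.3% of all genes were called, 10.2% lower and 18.1% higher (17.1% and 32.5% of expressed genes). The authors' deposited table for c3 gave -1.06 for Mllt3 (adjusted p = 1.43e-55), -1.02 for Hoxb5 (6.24e-11), -0.81 for Hlf (1.80e-48), -0.50 for Mycn, -0.43 for Mecom, -0.39 for Hoxa9 and -0.30 for Erg. Meis1 at -0.10 (0.0536) and Prdm16 at -0.23 (0.118) in that authors' deposited table were not called. The median was -0.43, beside -0.04 over all genes and 0.07 over expressed genes.

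In c4, the cluster with G2/M and S phase markers, 6 of the 9 were called lower and none higher, where 34.9% of all genes were called, 10.6% lower and 24.3% higher (16.7% and 44.2% of expressed genes). Mllt3 at -1.33 (adjusted p = 2.02e-72) and Mycn at -0.90 (2.71e-23) were lowest in the authors' deposited table for c4, followed by Hlf at -0.76, Hoxb5 at -0.49, Mecom at -0.36 and Meis1 at -0.18. Hoxa9 at 0.05 (0.711), Erg at -0.02 (0.895) and Prdm16 at -0.27 (0.0580) were not called in the authors' deposited table. The rebuilt level of Hoxb5 differed by -0.49 (log2) in c3 against c4, and that of Mycn by 0.38 in the other direction. No deposited table compares c3 with c4, so these values have no test. The part of S phase, erythroid, megakaryocyte and G2/M genes in the c3 and c4 values was not tested.

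In c5, where granulocyte, neutrophil, G2/M and some T and NK cell markers were high, all 9 factors were called lower. There 16.5% of all genes were called, 9.3% lower and 7.17% higher (18.5% and 10.5% of expressed genes). Hlf at -2.32 (adjusted p = 1.41e-30), Mecom at -2.27 (3.23e-31), Meis1 at -2.23 (1.41e-33), Hoxa9 at -1.95 (3.87e-12) and Mllt3 at -1.87 (3.10e-16) had the lowest values in the authors' deposited table for c5, by the authors' own test. Prdm16 at -1.36 (0.00112), Mycn at -1.28 (6.35e-06), Erg at -1.26 (0.00253) and Hoxb5 at -1.21 (0.0178) had values closer to 0 in the authors' deposited table. The median was -1.87, beside -0.52 over all genes and -0.24 over expressed genes.

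In c6, with late neutrophil markers, all 9 were again called lower, but there 40.9% of all genes were called, 35.7% lower and 5.2% higher, and 69.0% of expressed genes were lower and 7.53% higher. For 8 factors the authors' deposited table for c6 held the limit of -4, which stands for at least a 16-fold difference, while Erg was at -2.27 (adjusted p = 0.000196). The median over expressed genes was -2.24, so that Erg lay at the middle of the expressed genes. In c7, with B cell markers, 7 were called lower and none higher, where 6.18% of all genes were called, 5.16% lower and 1.02% higher (10.3% and 1.45% of expressed genes). All 7 were at the limit of -4 in the authors' deposited table for c7, and Hoxb5 at -2.54 (0.262) and Erg at -2.14 (0.285) were not called. The median over all 20062 genes was itself -4 in both tables, because 11373 genes in c6 and 11131 in c7 were at the limit.

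Lists of related genes were counted in the same way, and their counts are to be read against the shares given for each table. In c1 against c2 these were 15.4% higher and 22% lower over all genes, and 21.8% and 37.2% over expressed genes. The lists also hold genes that are not among the expressed ones: 5 HoxA and 6 HoxB genes reached the median mean expression. The HOX genes split by genomic cluster between c1 and c2. Of the 9 HoxA genes in the tables, 6 were called lower in c1 against c2, and none higher (median -0.30). Of 10 HoxB genes, 8 were called higher and none lower (median 1.41). In the authors' deposited c1 against c2 table, the gene beside Hoxa9, Hoxa10, was at -0.56, Hoxa3 at -0.58 and Hoxa2 at -0.99. Hoxb5 at 0.55 lay within a wide HoxB range in the authors' deposited table, from 0.23 for Hoxb4 and 0.34 for Hoxb3 up to 2.02 for Hoxb6, 2.79 for Hoxb9, 2.95 for Hoxb8 and 3.56 for Hoxb7. Hoxb7, Hoxb9 and Hoxa2 were below the median mean expression.

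**Figure D3:**
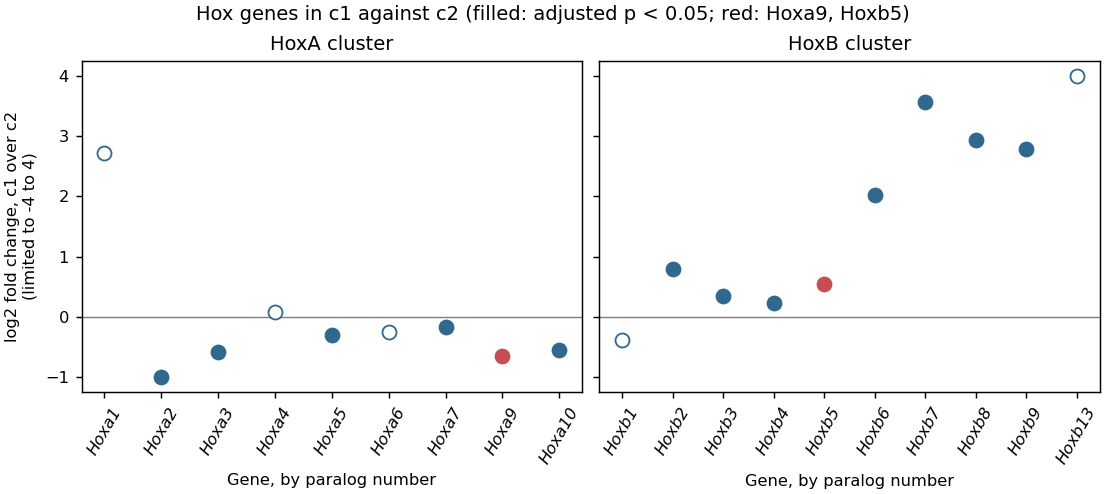
Points give the authors' deposited log2 fold change of c1 over c2 (y axis, limited to -4 to 4) for the HoxA genes (left) and HoxB genes (right) in order of paralog number; filled points have an authors' adjusted p under 0.05, and red marks Hoxa9 and Hoxb5. The 6 filled HoxA points lie below 0 and the 8 filled HoxB points above it, with Hoxb6 to Hoxb9 at 2.02 to 3.56.

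The tables of c1 and c2 against the rest share cells with the c1 against c2 table, since c2 held the largest share of the cells outside c1 and c1 of those outside c2. Their values are thus no separate support. In the tables of c1 and c2 against the rest, HoxB genes were higher for 8 of 10 in c1 (median 1.44) and lower for 5 of 10 in c2. HoxA genes were higher for 7 of 9 in c2 (median 0.52), and in c1 higher for 1 and lower for 3 (median -0.08). In c3, 6 HoxA genes and 8 HoxB genes were lower and none higher, with Hoxb8 at -2.09 in the authors' deposited table for c3. In c4, 2 HoxA and 6 HoxB genes were lower and none higher. In c5, 5 HoxA and 4 HoxB genes were lower and none higher.

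**Figure D4:**
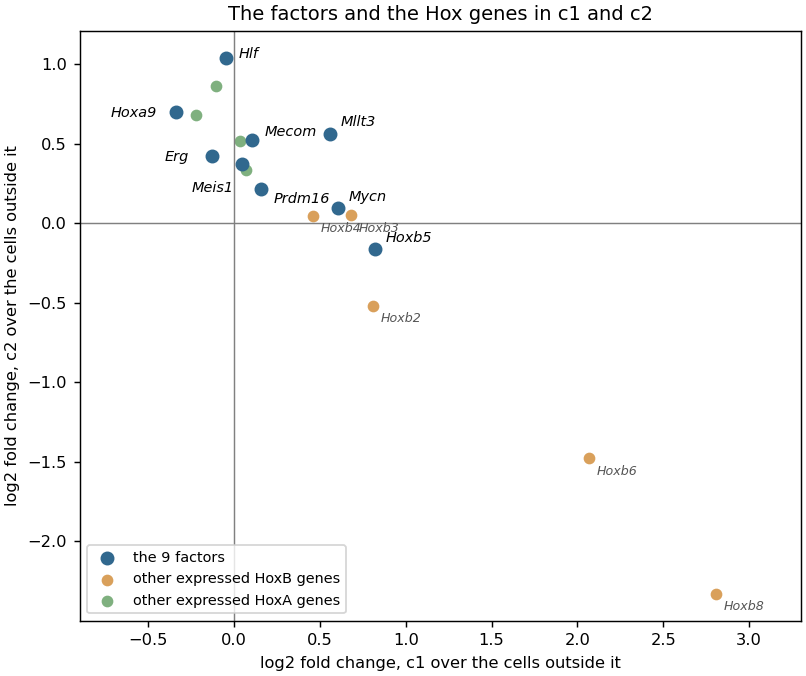
Each point is a gene, with the authors' deposited log2 fold change of c1 over the other cells on the x axis and of c2 over the other cells on the y axis; blue points are the 9 factors, green the other expressed HoxA genes and orange the other expressed HoxB genes. Hlf is highest on the c2 axis at 1.04, Mllt3 stands at 0.56 on both, and Hoxb6 and Hoxb8 lie far to the lower right.

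Other genes of the TALE group took both directions between c1 and c2. Of the 9 TALE homeobox genes, 4 were called higher and 4 lower in c1 against c2. Pbx3 at 1.45, Meis3 at 1.20 and Meis2 at 0.60 were among the higher ones in the authors' deposited c1 against c2 table, where Meis1 was at -0.21. Meis2 and Meis3 were below the median mean expression. Pknox1, a gene of a MEIS-like protein, was higher in c4 at 1.54 in the authors' deposited table for c4. In c5, 4 of the 9 genes were lower and none higher, with Pbx4 at -1.46 in the authors' deposited table for c5.

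The PAR bZIP relatives of Hlf moved in its direction in c1 against c2. Tef at -0.50 and Dbp at -0.42 were both called in the authors' deposited c1 against c2 table, and both were at 0.60 in that for c2. They differed from Hlf in c3, where Tef at -0.03 and Dbp at -0.14 were not called in the authors' deposited table for c3. Nfil3, a bZIP repressor that binds the same sites, was higher in c5 at 2.88 in the authors' deposited table for c5, where Dbp was at -1.56 and Tef at -1.25. Nfil3 was below the median mean expression.

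Mecom and Prdm16 were the PRDM genes called higher in both c1 and c2. Of the 12 genes of the PRDM and CtBP list, 2 were higher and 7 lower in c1, and 4 were higher and 1 lower in c2. These counts stand beside 18.1% of expressed genes higher and 47.7% lower in c1, and 27.1% higher and 31.5% lower in c2, so they say little about the family. Prdm11 at -0.50, Prdm10 at -0.61 and Prdm1 at -1.34 were lower in the authors' deposited c1 against c2 table. Prdm10 and Prdm1 were below the median mean expression. Ctbp1, which encodes a corepressor bound by both proteins, was higher in c4 at 0.70 and in c3 at 0.51 in the authors' deposited tables. Prdm11 was at -0.96 in the authors' deposited table for c5.

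Erg belongs to the 7 factors known as the stem cell heptad, with Fli1, Gata2, Runx1, Tal1, Lyl1 and Lmo2. Between c1 and c2, 2 of the 7 were called higher in c1 and 3 lower. Fli1 at 0.18 and Gata2 at 0.18 were higher and Tal1 at -0.22 was lower in the authors' deposited c1 against c2 table. In c3, 6 of the 7 were lower and 1 (Tal1, 0.18) higher, with -0.39 for Lmo2 in the authors' deposited table for c3. In c4, 1 was higher and 2 were lower, Lmo2 at -0.47 and Lyl1 at -0.20 in the authors' deposited table for c4. In c5, 5 were lower and none higher, led by Lmo2 at -2.02 and Gata2 at -1.80 in the authors' deposited table for c5, where Fli1 at -0.33 was not called.

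Erg is also the member of an ETS list of which 18 genes were in the tables. Of these, 2 were called higher and 8 lower in c1 against c2, with Spi1 at -0.71, Etv3 at -0.63 and Elf1 at -0.50 in the authors' deposited c1 against c2 table. In c5, Spi1, the gene of the myeloid factor PU.1, at 2.06 and Ets1 at 1.59 were higher in the authors' deposited table for c5, while 5 ETS genes including Erg were lower. Gabpa at 0.81 and Elf1 at 0.68 were higher in the authors' deposited table for c4.

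Of the 15 genes of the MLL and super elongation complex list, Mllt3 alone was called higher in c1 and 10 were lower, where 47.7% of expressed genes were lower. In c2, 7 of the 15 were higher, Mllt3 among them, and 1 was lower. In c3, 4 were higher and 5 lower, Mllt3 among the lower ones, and in c4, 5 were higher and 2 lower, Mllt3 and Aff4. Its paralog Mllt1 was at -0.49 in c1, 0.58 in c3 and 0.82 in c4 in the authors' deposited tables, where Mllt3 was at 0.56, -1.06 and -1.33. Dot1l, the histone methyltransferase gene of the DOT1L complex, was at 0.91 and Psip1 at 1.36 in the authors' deposited table for c4. In c1 against c2 none was called higher and 10 lower, among them Ell2 at -0.54, Kmt2a at -0.43 and Aff3 at -0.39 in the authors' deposited table. In c5 none was higher and 5 were lower, with Aff3 at -1.53 and Kmt2a at -1.08 in the authors' deposited table for c5.

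Over c1 to c5, Mycn and Myc lay farthest apart in c3, a difference that was not tested. Myc was at 0.66 in the authors' deposited table for c3, where Mycn was at -0.50. In c4 both were lower, Mycn at -0.90 and Myc at -0.30 in the authors' deposited table for c4. In c1 against c2 they were the 2 genes called higher among 13 of the MYC/MAX network, Mycn at 0.28 and Myc at 0.20 in the authors' deposited table, while 7 genes were lower. The lower ones included the genes of MYC antagonists Mxd1 at -0.60 and Mxd4 at -0.53, and Zbtb17 at -0.55 in the authors' deposited table. Mxd3 was at the limit of 4 in the authors' deposited table for c4, and in c5 3 genes were higher, among them Mxd3 at 1.55 and Mxd1 at 1.46, and 3 lower.

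**Figure D5:**
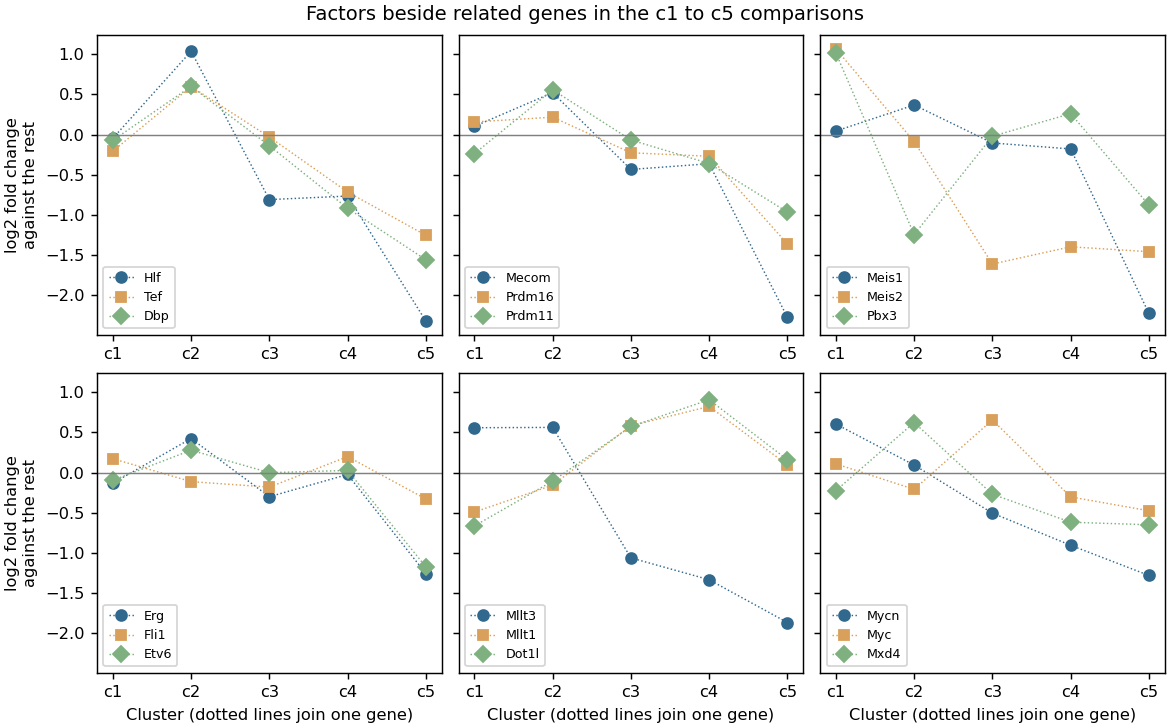
Points give the authors' deposited log2 fold change against the cells outside the cluster (y axis) in c1 to c5 (x axis) for 6 factors, each beside 2 related genes; dotted lines only join the points of a gene. Mllt3 runs opposite to Mllt1 and Dot1l in c1, c3 and c4, Mycn and Myc part in c3 at -0.50 and 0.66, and Tef and Dbp are near 0 in c3 where Hlf is at -0.81.

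The factors were compared with each other over c1 to c5, where none was at the limit. Mecom and Meis1 were the closest pair of the 36, with a root mean square difference of 0.19 (log2), followed by Prdm16 and Erg at 0.20. Hlf and Hoxb5 were the farthest pair at 0.84, and Hoxa9 and Hoxb5 stood at 0.82. Their profiles had a correlation of 0.49 for Hoxa9 and Hoxb5 and of 0.98 for Mecom and Meis1 over the 5 tables, which share most of their cells.

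The genes most like each factor were then sought over the 7 tables among expressed genes. The closest to Hoxa9 was Hoxa10, with a root mean square difference of 0.11 (log2), a gene that ends 0.11 kb from Hoxa9 in the annotation. Hlf was most like Hoxa3 (0.19), Prex2 (0.22) and Rtkn (0.23). Mecom was most like Adgrg1 (0.10), a receptor gene active in HSC, Chic1 (0.11) and Trpc6 (0.12). For Meis1 the closest were Rgs1 (0.08), Angpt1 (0.09), which encodes the ligand of TIE2, and Prkg1 (0.09). Prdm16 was closest to Trove2, Cpq and Grik5 (0.06 each) and Mycn to Gstm7 (0.07), Grasp (0.10) and Zfp1 (0.11). Mllt3 was nearest to the interferon-induced genes Ifi44 (0.13) and Ifitm7 (0.18), and to Mettl7a1 (0.20). Hoxb5 was nearest to Smagp (0.17), Coq8a (0.23) and Rhoj (0.30), and Erg to Decr2 (0.15), Prkacb (0.20) and Nipsnap2 (0.21). The other genes close to Hoxa9 were Fstl1 (0.12) and Vegfc (0.13). Of these 27 genes, 12 were found again when c1 to c5 alone were used: Hoxa3 and Rtkn for Hlf, Adgrg1 and Chic1 for Mecom, Rgs1 and Angpt1 for Meis1, Hoxa10 and Fstl1 for Hoxa9, Ifi44 and Ifitm7 for Mllt3, Trove2 for Prdm16 and Gstm7 for Mycn. None was found again for Hoxb5 or Erg. Likeness says nothing of shared control, and values at the limit of -4 in c6 and c7 add to it.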

How the data were processed

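Cells of 4 samples (2 old, 2 young) were profiled, per the labels' protocols, by droplet and by plate-based SmartSeq2 sequencing. The labels differ on how many droplet samples were loaded for each age. Which assay gave the 8 tables, their test, cell filters and doublet handling are not given here, and the depth per cell is unknown. Scanpy, GSNAP and HTSeq with GRCm38.p4 are named in the submitters' processing notes. The deposited mean expression and fold changes are log2 values: 2 raised to the mean expression summed to 10000, where a natural base gave 34992. The authors limited fold changes to -4 to 4. The authors' deposited p-values and adjusted p-values were used as they stand, and a gene was called at an adjusted p under 0.05. Their unit may be the cell, and cells are not replicates.

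The 9 genes and all lists were chosen with earlier results of these data known. Shares of cells were fitted by least squares (scipy 1.17.1) on 990 genes with a log2 mean between -5 and -3. Over 6201 genes, rebuilt c1 over c2 ratios differed from the direct ones by a median of 0.00142 (log2). This took the cells outside a cluster as the reference, and with all cells the median was 0.0970. These were expressed genes below the limit in every table, and Erg was the only factor among them. For Hlf the rebuilt ratio was -0.626, against -0.698 in the direct table. Named genes were all 9 factors; of each list, up to 3 called genes with the largest change in c1 against c2 and up to 2 in each of c3, c4 and c5; close paralogs; and the 3 genes most like each factor among expressed genes, leaving out predicted ones. Genes named beside these (overlapping, sex-linked, HSC marker, further HoxB and TALE genes) were chosen after their values were seen. Of the lists, Hoxa11, Hoxa13, Fev and Ehf are not among the listed genes. Gene positions are from GENCODE M21. Old and young samples were not compared. Some genes that the naming rule selects are not reported here.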

Additional observations from a re-analysis of the deposited data

How the results depend on the processing

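When a log2 fold change of at least 0.5 in size was also asked for, the factors called were 3 in c1, 4 in c2, 4 in c3, 3 in c4 and 3 in c1 against c2, in place of 6, 7, 7, 6 and 7. After centring on the median of expressed genes, that minimum gave 3 in c1, 4 in c2, 5 in c3, 5 in c4 and 3 in c1 against c2. Centring moved the median of the factors by more than 0.1 in 5 tables, to 0.23 in c1, -0.55 in c4, -1.63 in c5, -1.76 in c6 and -3.08 in c7. None of the called factors changed sign when centred. Among called genes of the lists, Lmo2 (c1 against c2) and Etv6 (c1) did, and in c6 so did Ctbp1, Ctbp2, Hoxb4, Fli1 and others. Counts at an adjusted p under 0.01 and with the adjustment recomputed were within 1.5 times the counts given. The level was highest in c2 for 7 factors under every setting of the shares. Every setting used the same deposited fold changes, so this is no separate support for the order of c1 and c2. Of the 27 like genes, 12 were found again over c1 to c5 alone; the cause of this was not tested. No paired analysis was possible because the tables hold no samples, and no replicate could be left out. The limit of -4 held 8 of the 9 factors in c6 and 7 in c7, and cell numbers are unknown.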

Other observations

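The expressed genes nearest to each factor on its chromosome were looked up after the values were seen. Those whose values stood opposite in sign to the factor's were picked out, so they do not represent all neighbours. Stxbp4, 85.6 kb from Hlf, was at 0.55 in the authors' deposited c1 against c2 table, where Hlf was at -0.70, and at -0.15 in that for c2, where Hlf was at 1.04. Mmd, on the other side of Hlf, was at 0.77 in the authors' deposited table for c4, where Hlf was at -0.76. Ddx1, a neighbour of Mycn, was at 0.74 in the authors' deposited table for c4, where Mycn was at -0.90.

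Antisense genes that overlap the factors were read in the same way, although their reads may be mixed with those of the factors. Gm16140, which overlaps Meis1, was at 0.36 in the authors' deposited c1 against c2 table, where Meis1 was at -0.21, whereas Gm16141, which also overlaps it, was at -0.15. Hoxb5os was at 0.17 and not called in the authors' deposited c1 against c2 table, where Hoxb5 was at 0.55. Mecomos, below the median mean expression, was at -1.04 in the authors' deposited tables for c3 and for c4. Mecom was lower there as well, at -0.43 and -0.36.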
